A study of Mus musculus with 4 samples.

Results

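Antibody genes were measured in CD8+ T cells sorted from mouse bone marrow (BM), a cell type that makes T-cell receptors (TCRs) and not antibodies. The members are the genes whose symbol starts with Igkv, Igkc, Iglv, Iglc, Ighv, Igha, Ighg or Ighm, together with Jchain. This rule found 85 of the 17561 genes of the deposited count table. Among them, Ighmbp2 encodes a DNA and RNA helicase, not an antibody chain, and was found through the first letters of its symbol. It was set aside, which left 84 immunoglobulin (Ig) genes.

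The cells came from mice on a C57BL/6 background, wild-type or transgenic for CRBN, the target protein of lenalidomide. According to the methods of the study, recipients carried Vk12653, a transplantable mouse myeloma and thus a plasma-cell tumour, before stem cell transplantation (SCT). Per the labels, all groups received 10000000 BM cells with T cells from genetically matched donors. The labels and the methods of the study differ on the number of T cells, which is not given here. Each group pooled the sorted cells of 5 mice on day 28, which is week 4. The 4 groups were TIGIT inhibition with vehicle, isotype control with lenalidomide, TIGIT inhibition with lenalidomide, and isotype control with vehicle. Antibody was started on the day of SCT and lenalidomide or vehicle on day 14. The labels give no age, and do not say which of the groups were of the CRBN genotype. Each group was 1 library, and the deposited cell table numbers the libraries 1 to 4 but ties no number to a treatment. Values are therefore listed by library number, and treatments were not compared. There were no replicates, and every interval below is a 95% interval for counting error only.

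Libraries 1 to 4 held 4237, 2003, 1725 and 3789 cells, 11754 in all, with a median of 7115 to 7669 unique molecular identifiers (UMIs) per cell. A UMI stands for 1 captured RNA molecule. The study named 8 clusters: naive cells (Tn), central memory cells (Tcm), 3 effector clusters (transitory, GzmB+ and TIGIT+ Teff), 2 exhausted clusters (GzmA+ and TIM-3+ Tex) and cycling cells. Of all cells, 14 had no UMI of Cd3e or Cd3g, subunits of the TCR complex, and 1159 had none of Cd8a. Cell barcodes present in more than 1 library numbered 56, and 49.1% of these 112 cells had an Ig UMI, against 53.2% of the other cells.

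An antibody is built from heavy and light chains. In B cells a variable (V) gene is joined by DNA rearrangement to short segments and transcribed with a constant gene, so that every descendant of a B cell or plasma cell uses the same V genes. The heavy constant genes set the class (Ighm for IgM, Ighg2b for IgG2b, Igha for IgA), light chains use kappa (Igkv, Igkc) or lambda (Iglv, Iglc) genes, and Jchain encodes the small chain that joins IgM or IgA units. Constant genes can also be transcribed without a joined V gene, as germline transcripts that encode no antibody chain.

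The 5 V genes with at least 100 UMIs carry the results on clonal patterns, and their first 180 transcript bases are shown because they bear on whether reads can be told apart from those of a near-identical neighbour. Sequences are GENCODE M21 transcripts of build GRCm38, read 5′ to 3′. Capitals mark bases that differ from, or have no aligned base in, the closest other V gene of the same class.
Igkv8-27: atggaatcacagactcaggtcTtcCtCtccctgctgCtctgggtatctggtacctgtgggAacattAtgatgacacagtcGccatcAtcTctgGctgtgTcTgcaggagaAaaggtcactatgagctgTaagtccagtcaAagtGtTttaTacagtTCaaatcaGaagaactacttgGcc
Igkv4-91: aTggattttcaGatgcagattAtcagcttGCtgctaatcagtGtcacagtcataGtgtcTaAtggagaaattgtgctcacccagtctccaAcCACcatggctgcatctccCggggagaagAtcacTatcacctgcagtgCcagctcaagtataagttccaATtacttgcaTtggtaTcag
Igkv14-111: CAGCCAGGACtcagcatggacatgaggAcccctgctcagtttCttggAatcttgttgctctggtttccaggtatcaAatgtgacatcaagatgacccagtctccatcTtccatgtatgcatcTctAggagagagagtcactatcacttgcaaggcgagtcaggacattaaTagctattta
Ighv1-15: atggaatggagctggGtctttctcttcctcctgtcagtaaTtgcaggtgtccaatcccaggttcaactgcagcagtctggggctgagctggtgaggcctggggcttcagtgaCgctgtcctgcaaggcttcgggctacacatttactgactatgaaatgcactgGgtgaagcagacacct
Ighv1-71: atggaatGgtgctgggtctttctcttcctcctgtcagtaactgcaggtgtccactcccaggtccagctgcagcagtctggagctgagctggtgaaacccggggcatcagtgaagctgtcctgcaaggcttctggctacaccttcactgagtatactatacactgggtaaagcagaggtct

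Igkv8-27 (chr6:70171809-70172270, minus strand) was 90.3% identical to its closest relative, Igkv8-19. For Igkv4-91 (chr6:68768555-68769103, minus strand) the closest was Igkv4-60 at 87.7%, and for Igkv14-111 (chr6:68256389-68256869, plus strand) Igkv14-126 at 91.6%. The heavy V genes have nearer neighbours. Ighv1-15 (chr12:114657353-114657786, minus strand) differs from Ighv1-23 at 7 of 351 bases, and Ighv1-23 itself had 3 UMIs. Ighv1-71 (chr12:115742205-115742647, minus strand) differs from Ighv1-62-2 at 1 of 359 bases, so that the assignment of its reads to Ighv1-71 and the level derived from it are uncertain. Ighv1-62-2, Igkv8-19 and Igkv4-60 were not among the genes of the count table used here.

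The Ig genes differed in their distribution, and most of the counts are described below under 5 patterns: Ighm, spread over all clusters and highest in Tcm and Tn; Igkc, nearly confined to effector, exhausted and cycling cells and unequal between TCR clones; a plasma-like cell of library 3 with Igkv8-27, Igha and Jchain; low counts of the same 3 genes in the other library 3 cells; and the V gene pair Igkv4-91 and Ighv1-15 in all libraries. Igkv14-111 is described apart from these. The source of the Ig RNA was not tested, and the members are called Ig genes here.

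A total of 17508 Ig UMIs were counted, 165 counts-per-million (CPM; 163 to 168). Of the 84 genes, 49 had a UMI, 35 had none, 31 had 1 to 10 and 11 had at least 100. Heavy constant genes made up 54.0% of Ig UMIs, kappa V genes 20.8%, Igkc 14.4%, heavy V genes 5.79%, Jchain 3.36%, lambda constant genes 1.32% and lambda V genes 0.331%. Ig CPM was 131, 141, 328 and 142 in libraries 1 to 4, and library 3 stood above the others. Without its plasma-like cell library 3 was at 159 CPM.

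An Ig UMI was present in 53.2% of cells (52.3% to 54.1%), with 51.4%, 53.2%, 50.9% and 56.3% in libraries 1 to 4. After each cell was thinned to 2500 UMIs the share was 24.97%. Most cells held few, since 2841 had exactly 1 Ig UMI, 71 had at least 10, 17 had at least 20 and 3 had at least 100.

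**Figure D1:**
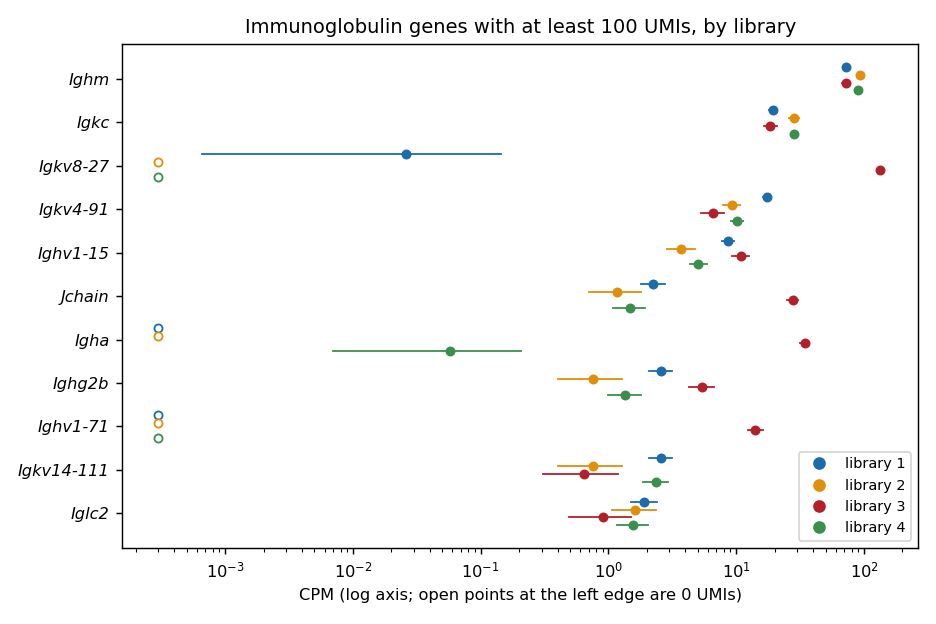
CPM (log axis) of the 11 Ig genes with at least 100 UMIs in libraries 1 to 4; lines are exact Poisson 95% intervals and open points mark 0 UMIs. Ighm and Igkc lie close together in the 4 libraries, while Igkv8-27, Igha and Ighv1-71 are at 133, 34.4 and 14.1 CPM in library 3 and at or near 0 in the others.

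Ighm, the constant gene of IgM, held 8654 UMIs, more than any other Ig gene. Libraries 1 to 4 had 72.9, 92.8, 71.7 and 90.1 CPM. It was found in 4661 cells, and no cell had more than 15. Its level by cluster was 135 CPM (130 to 139) for Tcm, 121 (114 to 127) for Tn, 85.7 in GzmB+ Teff, 65.0 in both GzmA+ Tex and transitory Teff. Cycling cells had 50.5, and the lowest were TIGIT+ Teff (48.3) and TIM-3+ Tex (39.1, interval 35.4 to 43.2). The neighbours GzmA+ Tex and transitory Teff, and cycling cells and TIGIT+ Teff, did not differ beyond counting error.

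Over Tn and Tcm together Ighm stood at 130 CPM, against 59.5 CPM over the 5 Teff and Tex clusters, a log2 ratio of 1.13 (1.063 to 1.203). The ratio was 1.29, 1.09, 1.27 and 0.96 in libraries 1 to 4, higher in Tn and Tcm in each of them. After thinning, 27.4% of Tcm and 23.8% of Tn cells had an Ighm UMI, against 6.53% of TIM-3+ Tex. Clusters were made from the same expression values, so these ratios are descriptions.

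Markers of B cells differed in their counts. Ms4a1 (CD20) had 2 UMIs in all cells, Pax5, the B-cell master regulator, 3, and Cd79a, a subunit of the B-cell receptor, 19. Ighd, the IgD constant gene, had 62 UMIs. Cd22, an inhibitory receptor of B cells, had 927 UMIs in 784 cells and was highest in Tcm, at 19.3 CPM. Cd79b, the other subunit of the B-cell receptor, had 920 UMIs in 768 cells and was highest in Tn, at 16.5 CPM. Ighm was also highest in Tcm and Tn, and the part of B-cell RNA in its values was not tested. All 11 B-cell markers together were at 24.6 CPM in Tn and 27.9 CPM in Tcm, and at 12.005 to 29.138 CPM over the 8 clusters. Ighm was also not a gene of the plasma-like cell described below, which held 0 Ighm UMIs.

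Igkc, the only kappa constant gene, held 2517 UMIs in 1309 cells. Libraries 1 to 4 had 19.5, 28.4, 18.4 and 28.5 CPM. Its order over clusters was nearly the opposite of that of Ighm. Igkc was at 48.4 CPM in TIM-3+ Tex (44.2 to 52.9), 47.8 in GzmA+ Tex, 38.1 in transitory Teff and 32.3 in cycling cells. TIGIT+ and GzmB+ Teff had 21.7 and 18.1 CPM. Tn cells had only 2.94 CPM (2.01 to 4.14), and Tcm 2.34 (1.79 to 3.01). TIM-3+ and GzmA+ Tex did not differ beyond counting error, nor did Tn and Tcm.

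Tn and Tcm together had 2.52 CPM of Igkc, whereas the Teff and Tex clusters had 36.5 CPM, a log2 ratio of -3.86 (-4.18 to -3.55). In libraries 1 to 4 the ratio was -3.93, -4.05, -2.56 and -4.44. In library 3 it was -2.13 without the plasma-like cell, which held 39 of that library's Igkc UMIs. After thinning, 9.85% of TIM-3+ Tex and 0.439% of Tcm cells had an Igkc UMI (unthinned 25.3% and 1.43%, median depth 8433.5 and 6958 UMIs).

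A call was made for a gene when its log2 ratio between Tn and Tcm and the Teff and Tex clusters, with 1 CPM added to each side, was at least 1 in the same direction in every library. Of 10991 genes with at least 100 UMIs, 0.437% were called higher in Tn and Tcm and 3.78% lower. None of the 11 Ig genes with that many UMIs was called higher, since Ighm fell below 1 in library 4. Igkc was the 1 of the 11 called lower, and a count of 1 is too small to set against the share of all genes. Iglc2, a lambda constant gene with 169 UMIs, was at 0.411 CPM in Tn and Tcm and 2.34 in the Teff and Tex clusters. Iglc3 had 43 UMIs, Iglc1 19, Ighg2c 15 and Ighg3 4, and the remaining lambda constant gene had none.

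**Figure D2:**
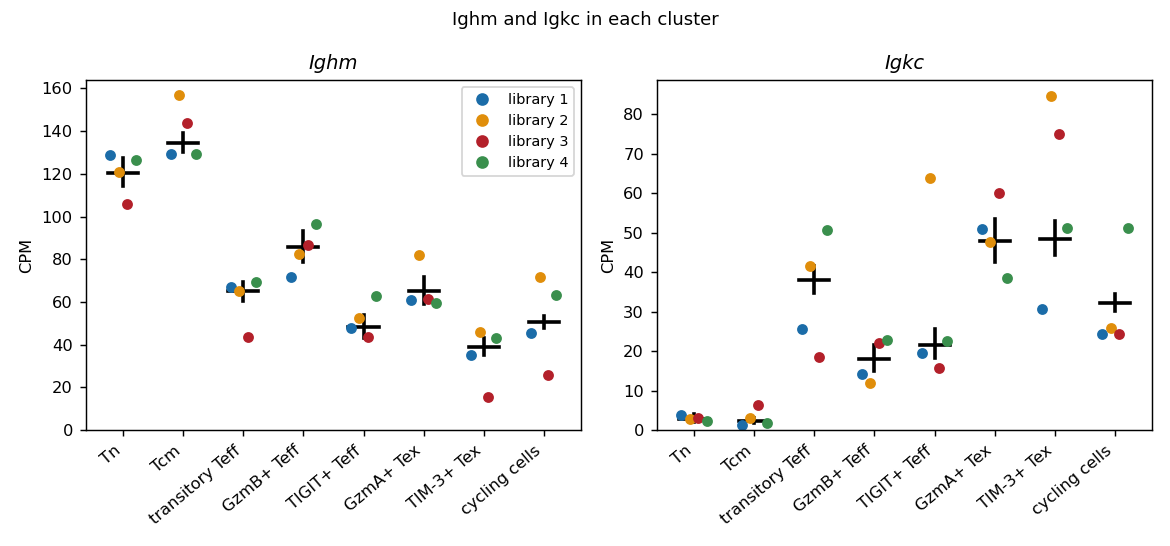
CPM of Ighm (left) and Igkc (right) in the 8 clusters; coloured points are the 4 libraries, and black bars the level over all cells of a cluster with its exact Poisson 95% interval. Ighm is highest in Tcm and Tn (135 and 121 CPM), where Igkc is lowest (2.34 and 2.94 CPM).

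In cells with a rearranged kappa gene, V and constant sequence lie on the same transcript. In the plasma-like cell the deposited counts held 1506 UMIs of its kappa V gene and 39 of Igkc. Most other cells with Igkc had no UMI of the kappa V genes in the count table. These were 35 genes, and other kappa V genes of GENCODE M21, such as Igkv8-19 and Igkv4-60, were not among them. Of 85 cells with at least 5 Igkc UMIs, 73 had no kappa V UMI, and 77 had no UMI of Jchain, Igha or an Ighg gene. Among effector, exhausted and cycling cells, kappa V UMIs were found in 17.1% of Igkc-positive cells (15.02% to 19.31%) and 9.21% of Igkc-negative cells (8.48% to 9.99%). Igkc-positive cells were deeper, with a median of 11299 against 7712 UMIs, and the part of depth in this difference was not tested.

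Igkc differed strongly between T-cell clones, that is, groups of cells with the same TCR. A clone of at least 20 cells in a library was found 33 times. Some of these lacked an alpha chain or had an extra alpha or beta chain. Some also used the same beta chain genes as another clone of their library, so the 33 need not all be distinct. The share of its cells with an Igkc UMI ran from 0% to 74.5%, with a median of 10.9%. In 4 clones no cell had Igkc, and in 2 clones at least 50% of cells did. The clone with the largest share used TRAV14D-3-DV8 and TRBV3 in library 4, and Igkc was found in 35 of its 47 cells at 179 CPM (144 to 220). The next, with TRAV3-1 and TRBV13-1 in the same library, had Igkc in 21 of 39 cells at 153 CPM (110 to 207).

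Some clones also differed from the other cells of their cluster. Within transitory Teff, 82.4% of the 17 cells of the first clone had Igkc, against 16.4% of the 635 other library 4 cells of that cluster, at median depths of 6294 and 6041 UMIs. Within cycling cells the values were 69.2% of 26 and 28.2% of 496. A library 2 clone with TRAV8-1 and TRBV19 had Igkc in 46.2% of its 26 cells. Within TIM-3+ Tex its share was 35.7% of 14 cells, against 32.9% of the 167 others, at unequal median depths of 4757.5 and 9260 UMIs. At the other end, a library 4 clone with TRAV16N and TRBV16 had 0 Igkc UMIs in 42 cells, where the rate of its library and clusters gave 17.4. A clone with TRAV9-1 and TRBV26 in library 3 had 1 Igkc UMI in 75 cells, where that rate gave 15.2.

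The spread over clones was summarised per gene as the mean, over the 33 clones, of the squared difference between observed UMIs and those given by the rate of the same library and clusters, divided by the latter. It is 1 when clones differ by counting error alone. Igkc gave 18.1, and 151 of 10341 genes other than TCR genes gave more, with a median of 1.31. Ighm gave 9.81, with 265 genes above it. Igkv4-91 gave 2.53, Ighv1-15 2.13, Jchain 2.004, Igkv8-27 1.958 and Iglc2 1.09. For a gene that differs between clones this measure can rise with its UMIs, and genes were not matched for level. The rate gave 462 UMIs for Igkc and 685 for Ighm, against 26.0 for Iglc2.

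A clone can also be followed across libraries. In all, 5 TCR clones had at least 10 cells in each of a pair of libraries. The clone with TRAV13N-1, TRAV12D-3 and TRBV5 had Igkc at 197 CPM in library 1 (10 of 24 cells) and 123 CPM in library 4 (23 of 75 cells). The clone with TRAV7-5 and TRBV19 had Igkc in 1 of 40 cells of library 2 and 0 of 13 of library 3. The remaining 3 had 14.2 and 41.9, 61.7 and 53.5, and 19.0 and 13.0 CPM in their pairs of libraries, with overlapping intervals. Over effector, exhausted and cycling cells of a library, 11.2% to 22.6% of cells had an Igkc UMI.

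**Figure D3:**
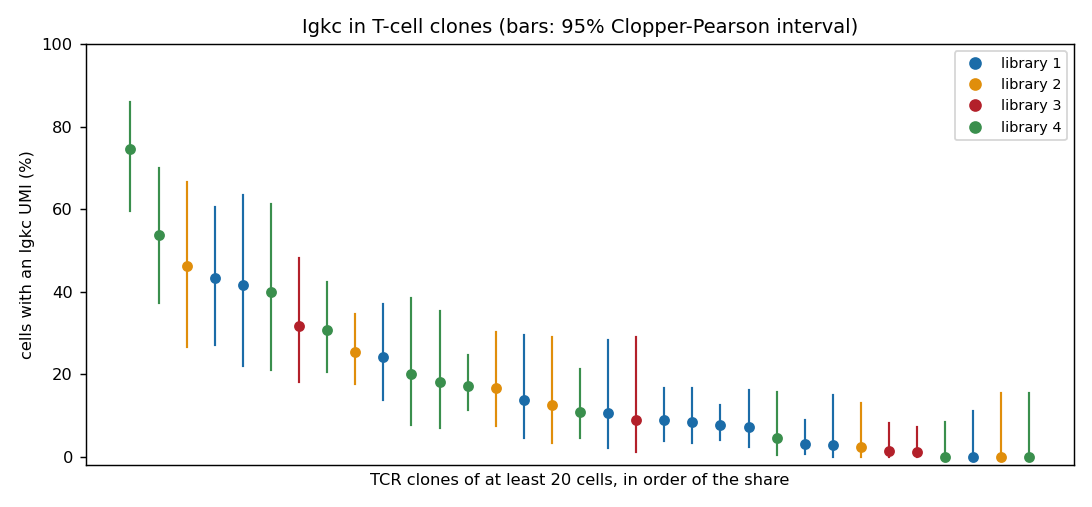
Share of cells with an Igkc UMI in each of the 33 TCR clones of at least 20 cells in a library, in descending order and coloured by library, with Clopper-Pearson 95% intervals. The shares run from 74.5% to 0%, and high and low clones occur in the same libraries.

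The largest amount of Ig RNA in the series was in 1 library 3 cell of the GzmA+ Tex cluster. Of its 5739 UMIs, 2632 were Ig, 45.9%. It held 1506 UMIs of Igkv8-27, 479 of Igha, 348 of Jchain, 212 of Ighv1-71, 39 of Igkc, 31 of Iglv1 and 7 of Iglc1. It had 0 UMIs of Cd3e and Cd8a, 1 of Cd3g and no TCR. Of 15 plasma-cell markers 13 were present, with 80 UMIs in all. Among them were Xbp1, the transcription factor of the secretory programme (19 UMIs), Txndc5, a protein disulfide isomerase (24), Mzb1, a chaperone of antibody assembly (6), and Tnfrsf17, the receptor BCMA (4, all there were in the table). Of 12 genes of protein secretion and folding, 11 were in the table and 10 were present in the cell.

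This cell held 51.5% of the Ig UMIs of library 3 and set several values. GzmA+ Tex had 600 Ig CPM, against 197 without it. The log2 ratio of GzmA+ Tex to all other cells was 2.14 (2.08 to 2.19) with it and 0.53 (0.44 to 0.61) without. By library the ratio was 1.04, 0.56, 4.34 and 0.01, and that of library 3 was -0.15 (-0.42 to 0.12) without the cell. For the sum over all Ig genes, a higher level in GzmA+ Tex was seen in libraries 1 and 2 with all their cells. It was not detectable in library 4 or in the rest of library 3. No rich cells were left out in libraries 1 and 2. Of the 621 Ig UMIs of GzmA+ Tex in library 1, single cells held 161, 42, 24 and 18. Of the 274 in library 2, single cells held 49 and 25. Without the 10 cells with the most Ig UMIs, the ratio over all libraries was 0.24. In library 4 the sum held Ighm, which was lower in GzmA+ Tex (-0.62, -0.91 to -0.35), and the ratio of the other Ig genes was 0.74 (0.49 to 0.98). In library 3, without the cell and without Ighm, it was -0.08 (-0.45 to 0.27). GzmA+ Tex also carried the most macrophage RNA, with the 11 macrophage markers at 1244 CPM against 6.60 to 78.1 CPM in the other clusters, and the part of such RNA in the Ig values was not tested.

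These genes were also set against the rest of the table. A single cell held at least 25% of the UMIs of 5 of the 11 Ig genes with at least 100 UMIs (Igkv8-27, Igha, Jchain, Ighv1-71 and Ighg2b). This was so for 7 of the 10991 genes (0.0637%), these 5 among them. Apart from Ighg2b, the single cell was the plasma-like cell. A single library held at least 90% of the summed CPM of 3 of the 11 (Igkv8-27, Igha and Ighv1-71), against 0.0455% of all genes, these 3 included. Igha and Ighv1-71 had 56 and 7 UMIs in the other library 3 cells and reached 100 only through the plasma-like cell. Their place in both counts was thus set by that cell, and the counts are descriptions.

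Igkv8-27 was also found outside that cell, and almost only in the same library. It was counted in 250 of the 1724 other library 3 cells (14.5%, 12.9% to 16.3%), with 565 UMIs and at most 8 in a cell. The 10029 cells of the other libraries together had 1 UMI. In library 3 it was present in every cluster, in 15.4% of Tn, 15.4% of Tcm, 14.1% of transitory Teff, 13.9% of GzmB+ Teff, 12.2% of TIGIT+ Teff, 18.3% of GzmA+ Tex, 12.9% of TIM-3+ Tex and 14.1% of cycling cells. These shares did not differ beyond counting error, over median depths from 4681 to 12153 UMIs. Per 100 cells there were 16.1 UMIs in TIM-3+ Tex, 24.4 in TIGIT+ Teff and 31.8 to 39.8 in the other clusters. Relative to all UMIs, cycling cells were at 25.04 CPM (20.6 to 30.1) and Tcm at 46.2 CPM (38.8 to 54.5), and these intervals did not overlap. The lowest level was that of TIM-3+ Tex, 15.6 CPM (5.07 to 36.5). Igkv8-27 UMIs came in small groups, with 112 cells at 1, 93 at 2 or 3 and 45 at 4 to 8.

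The ratios of Jchain and Igha to Igkv8-27 did not differ beyond counting error between 3 groups of clusters. They rest on 11 to 39 UMIs of each gene per group. Per 100 Igkv8-27 UMIs, Jchain had 15.7 (11.1 to 21.4) in Tn and Tcm, 14.7 (9.92 to 21.0) in Teff and Tex and 12.5 (6.83 to 21.0) in cycling cells. Igha had 10.0, 9.80 and 9.82. In the plasma-like cell the same ratios were 23.1 for Jchain and 31.8 for Igha, and Ighv1-71 had 14.1 against 1.24 in the other cells. Jchain was present in 20.4% of the other library 3 cells with an Igkv8-27 UMI and in 0.9498% of those without, at median depths of 8037 and 7599.5 UMIs. Summed over all 1724 other library 3 cells, Igkc and Ighm had 43.9 and 197 UMIs per 100 of Igkv8-27. In the plasma-like cell they had 2.59 and 0. Where the RNA of these cells came from was not tested.

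**Figure D4:**
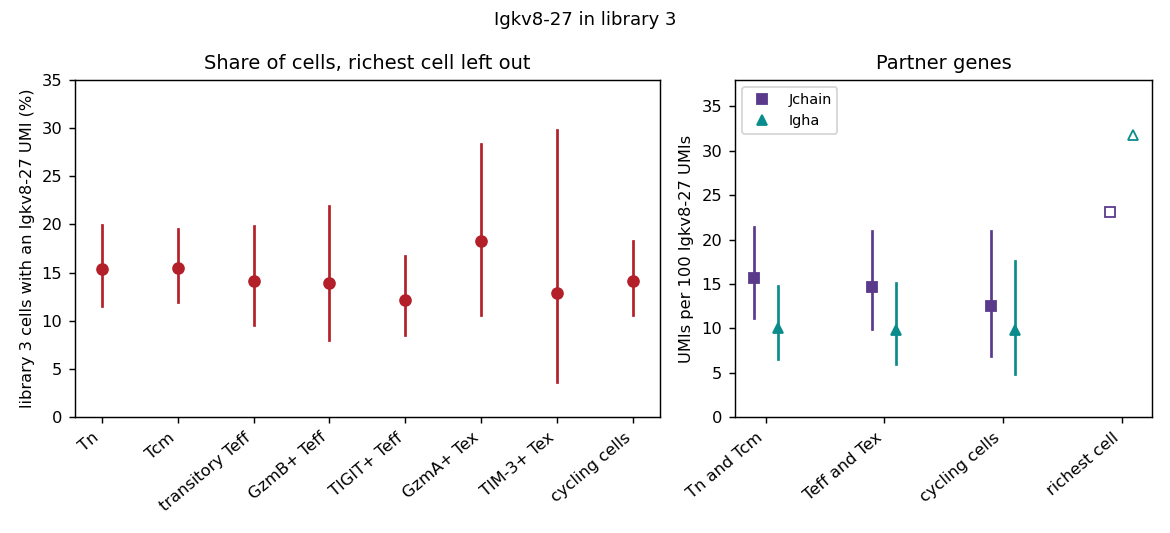
Left, share of library 3 cells with an Igkv8-27 UMI in each cluster without the plasma-like cell (Clopper-Pearson 95% intervals); right, UMIs of Jchain and Igha per 100 Igkv8-27 UMIs in 3 groups of clusters (exact Poisson 95% intervals of the numerator) and in the plasma-like cell (open points). The shares lie between 12.2% and 18.3%, and the ratios of the 3 groups lie below those of the single cell.

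Libraries 1, 2 and 4 had another leading V gene. Shares of V UMIs refer to the 35 kappa and 35 heavy V genes in the count table. Igkv4-91 had 672, 159, 102 and 353 UMIs in libraries 1 to 4, which was 80.7%, 91.4%, 4.65% and 79.3% of their kappa V UMIs. The leading kappa V gene of library 3 was Igkv8-27 with 94.4%, and Igkv4-91 made up 14.9% there without the plasma-like cell. Second in libraries 1, 2 and 4 was Igkv14-111 with 11.9%, 7.47% and 18.4%. After these came Igkv9-120 (24 UMIs, all in 1 library 1 cell), Igkv14-126 (2 UMIs) and Igkv15-103 (6 UMIs in 1 library 4 cell).

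Heavy V genes were led by Ighv1-15, with 331, 64, 170 and 176 UMIs, 96.5%, 71.9%, 43.5% and 92.1% of heavy V UMIs in libraries 1 to 4. In library 2 the next was Ighv1-5, with 22 UMIs in a single cell, and Ighv1-15 made up 95.5% without that cell. In library 3 Ighv1-71 led with 56.0%, of which 212 of 219 UMIs lay in the plasma-like cell, and Ighv1-15 made up 94.97% without it. A single cycling cell held 154 of the 170 Ighv1-15 UMIs of library 3. Ighv8-12 had 5 UMIs in 1 cell each of libraries 1 and 4, and the other leading heavy V genes, Ighv7-1, Ighv1-73 and Ighv1-23, had 1 or 2 UMIs in a library.

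Igkv4-91 and Ighv1-15 tended to occur in the same cells, though most cells with Igkv4-91 lacked Ighv1-15. Igkv4-91 was found in 665 cells, Ighv1-15 in 299 and both in 149. Ighv1-15 was present in 22.4% of the 665 cells with Igkv4-91 (19.3% to 25.8%) and in 1.35% of the others (1.15% to 1.59%). In libraries 1 to 4 the shares were 25.6%, 26.2%, 24.0% and 16.9% with Igkv4-91, and 1.61%, 1.09%, 0.471% and 1.64% without. In cells of 8000 to 12000 UMIs the shares were 20.8% and 1.46%, so the pairing was also seen at like depth. Ighg2b, the IgG2b constant gene (99, 13, 84 and 47 UMIs by library), was present in 27.5% of cells with both V genes and 0.457% of cells with neither.

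The pair was concentrated in few cells. The 23 cells with at least 10 UMIs of the pair held 37.8% of its UMIs, and 15 of them had Ighg2b. All 23 had Cd3e or Cd3g, as did 99.9% of all cells, and 22 had Cd8a, against 90.1% of all cells. The study had filtered cells on these genes. Of the 23 cells, 5 had a TCR, 11 had Xbp1 and none had Mzb1. Among all 11754 cells, Xbp1 was found in 3551 and Mzb1 in only 8. The median depth of the 23 cells was 16136 UMIs, against 7507 over all cells. The plasma-like cell had 1 Cd3g UMI, 0 of Cd3e and Cd8a, and 6 of Mzb1. The pair made up between 0.0501% and 2.83% of their UMIs. The richest, a library 3 cycling cell of 16136 UMIs, had 154 Ighv1-15, 69 Igkv4-91 and 83 Ighg2b UMIs beside 14 of Cd3e and 14 of Cd8a. The next, a library 1 GzmA+ Tex cell of 4662 UMIs, had 59, 73 and 16 beside 5 of Cd3e and 7 of Cd8a. Whether such cells were droplets that held more than 1 cell was not tested.

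By cluster, Igkv4-91 ran from 2.66 CPM in Tn to 36.5 CPM in GzmA+ Tex, and Ighv1-15 from 1.38 to 22.9 CPM between the same clusters. Of the 23 rich cells 9 were in GzmA+ Tex. Without the 23 cells Igkv4-91 was at 15.7 CPM in GzmA+ Tex, 16.04 in TIM-3+ Tex, 6.48 in Tcm and 2.66 in Tn. Ighv1-15 was then at 6.91 CPM in GzmA+ Tex, 6.75 in TIM-3+ Tex, 2.58 in Tcm and 1.38 in Tn. The log2 ratio of Tn and Tcm to Teff and Tex was -1.62 for Igkv4-91 with all cells, and -2.26, -1.25, -1.60 and -0.86 in libraries 1 to 4. Of the 23 rich cells 17 were in Teff and Tex and 0 in Tn and Tcm. Without the rich cells Igkv4-91 was at 5.34 CPM in Tn and Tcm and 11.02 in Teff and Tex.

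**Figure D5:**
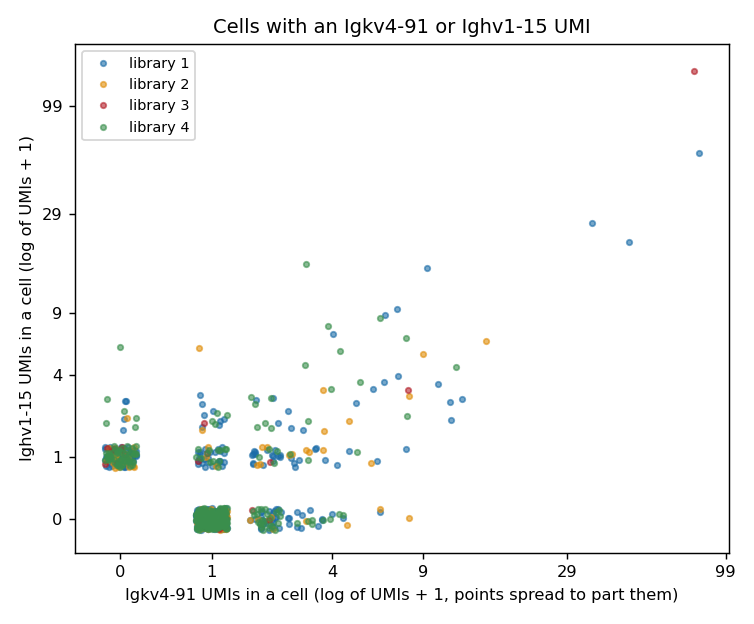
UMIs of Igkv4-91 and Ighv1-15 in each cell with at least 1 UMI of either (both axes the log of UMIs + 1, points spread to part them), coloured by library. Cells rich in Igkv4-91 are mostly rich in Ighv1-15, up to 69 and 154 UMIs in a library 3 cell.

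Igkv14-111 had yet another distribution. Its 204 UMIs (99, 13, 10 and 82 in libraries 1 to 4) lay in 184 cells with at most 2 in any. It was highest in Tcm, at 4.53 CPM (3.74 to 5.43), against 0.460 to 2.03 CPM in the other clusters. The log2 ratio of Tn and Tcm to Teff and Tex was 1.53 (1.06 to 2.02), from 1.51 in library 1 and 2.20 in library 4 to -0.21 (-2.17 to 1.59) in library 2, where it had 13 UMIs. Library 3 had too few for a ratio.

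Jchain had 588 UMIs, with 86, 20, 431 and 51 in libraries 1 to 4, of which the plasma-like cell held 348. Without that cell it was at 5.07 CPM in GzmA+ Tex, 4.21 in TIGIT+ Teff and 1.53 to 2.66 CPM in the other 6 clusters. Igha had 0, 0, 535 and 2 UMIs. Lambda V genes had 58 UMIs, 45 of them of Iglv1.

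The 120 cells that made up the 1% richest in Ig UMIs of each library held 24 GzmA+ Tex cells (4.203% of that cluster), 43 cycling cells (2.23%) and 8 Tcm cells (0.234%). They were deeper than the other cells, with a median of 15549 against 7483.5 UMIs, and 49.2% against 67.9% had a TCR. Of the 20 cells with the most Ig UMIs, 19 had Cd3e, 14 had both Igkv4-91 and Ighv1-15, and 4 had a TCR.

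Markers of other cells in these 120 cells were set beside the other cells of the same library and cluster. The 15 plasma-cell markers summed to 470 CPM against 397, and to 427 CPM without the plasma-like cell. With that cell counted, 13 of 15 were higher. The 11 B-cell markers were at 35.1 against 17.1 CPM (30.2 without that cell), and the 8 CD8 T-cell markers at 6503 against 7148 CPM. Macrophage markers were at 265 against 304 CPM, neutrophil markers at 13.4 against 19.5, erythroid markers at 5.01 against 7.38, and secretion and folding genes at 2474 against 2381 CPM. Most of the plasma-cell markers' sum came from genes that T cells also use, such as Slamf7 (126 against 122 CPM), Txndc5 (90.8 against 66.7) and Xbp1 (64.1 against 48.1). Mzb1 had 4 UMIs and Tnfrsf17 none in the other 119 cells.

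The genes outside the Ig set with the highest ratio in the 120 cells (10 CPM added to both sides) included Trbv29 (222 against 43.9 CPM) and Trbv15 (247 against 147), both TCR beta V genes, and Xcl1, a chemokine (632 against 298). Id3, a regulator of lymphocyte differentiation, was at 79.7 against 35.5 CPM, and Slamf6, a receptor of memory-like T cells, at 111 against 70.2. Cd74, the invariant chain of MHC class II in antigen-presenting cells, was at 208 against 111 CPM, and Cd9, a tetraspanin, at 68.0 against 33.1. The others were Klra3, a Ly49 receptor (63.5 against 32.0), Arl5c (59.0 against 32.3) and 1500009L16Rik (50.7 against 25.4). Trbv29 was found in 14, Trbv15 in 15 and Klra3 in 22 of the 120 cells, so that their values rest on few cells. A single cell held 46 of the 114 Klra3 UMIs, and a single cell 275 of the 1134 Xcl1 UMIs.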

How the data were processed

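Single CD8+ T cells of 4 libraries were measured by droplet RNA sequencing with a kit that reads the start of each transcript. The submitters' processing notes name Cell Ranger 7.00 and build mm10, and whether intronic reads were counted is not given in the sources used here. Per the study's methods, the authors downsampled reads across libraries and filtered cells on total UMIs, the share of mitochondrial RNA and the presence of T-cell genes (Cd3e, Cd3g, Cd8a). The deposited count table holds raw UMI counts per gene and cell with no normalization by the authors. The deposited cell table holds the authors' UMI count, mitochondrial fraction, cluster name and library number, and the TCR table the authors' TCR genes. No per-sample column could be mapped to a treatment, so 0 were.

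UMIs were summed and given as CPM with exact Poisson intervals, ratios with conditional binomial and shares with Clopper-Pearson intervals, at the 95% level. These cover counting error only, and with 1 library per group no test was made. Depth was 15556967 to 38440687 UMIs per library, and cells held 2502 to 24983 UMIs. No doublets were removed. Gene names, coordinates and V sequences came from GENCODE M21. V genes were compared by pairwise alignment in Biopython 1.88, and the capitals follow the closest gene. Thinning to 2500 UMIs used seed 7, and the calculations were tested on simulated data. The tools were Python 3.11.15, scipy 1.17.1, numpy 2.4.6, matplotlib 3.10.9 and pandas 2.3.3.

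The members and lists were chosen with earlier results of these data known. Named genes were every constant gene and Jchain, the 3 kappa and 3 heavy V genes with the most UMIs per library, the lambda genes with the most UMIs, the plasma-cell list as a count with examples, and the 10 other genes with the highest ratio (10 CPM added, at least 50 CPM) between the 1% of cells richest in Ig of each library and the other cells of the same library and cluster. The values by clone, the comparison of Igkc with V genes, the plasma-like cell, the ratios to Igkv8-27 and the pairing of V genes were chosen after values had been seen. The values of 1 listed B-cell marker are not reported here.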

Additional observations from a re-analysis of the deposited data

Results flagged for a closer look

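In a set of 4 values, the highest or the lowest, whichever lay farther from its neighbour, was looked at when that distance made up most of the whole range (Dixon's criterion at the 95% level), for the CPM of all Ig genes together and of the 11 with at least 100 UMIs. The 4 libraries come from different treatments and are not replicates, and chance alone marks about 1 in 20 such sets. Of 12 values, 5 were marked, all for library 3. All Ig genes together were at 328 CPM there, Igkv8-27 at 133, Igha at 34.4, Jchain at 27.7 and Ighv1-71 at 14.1. The single plasma-like cell of library 3 held most UMIs of each of these genes, and the 5 values are therefore not independent of each other. Outside that cell, all Ig genes together were at 159 CPM in library 3. Igkv8-27 was still at 36.3 CPM there, Jchain at 5.34, Igha at 3.60 and Ighv1-71 at 0.450.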

How the results depend on the processing

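No paired analysis was possible because each treatment group was 1 library, no test was made and library numbers were not tied to treatments. The limits are counting error, the single library per group, and depth, since most cells held 0 or 1 Ig UMI. Ig CPM over all cells (165) was 178 with cells thinned to 2500 UMIs, 182 as the mean over cells of the per-cell share, 133 without the 10 cells with the most Ig UMIs, 140 in cells with a TCR and no more than 1 TRB chain, and 137 to 185 with each library left out in turn. Of the alternatives added after seeing the data, it was 140 without the plasma-like cell, 83.5 without Ighm and 178 with Ighmbp2.

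The log2 ratio of Ig CPM in GzmA+ Tex to all other cells (2.14) was 2.97 with thinned cells, 2.91 with each cell of equal weight, 0.24 without the 10 richest cells, 0.31 in cells with a TCR and no more than 1 TRB chain, and 0.62 to 2.54 with each library left out, the lowest without library 3. It was 0.53 without the plasma-like cell and 3.31 without Ighm, both added after seeing the data, and 2.15 by cluster number, within counting error of the main value. The sign did not change under any of these.

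The share of cells with an Ig UMI (53.2%) was 24.97% with thinned cells, 29.03% at a threshold of 2 UMIs, 51.7% to 54.2% with each library left out, and, added later, 21.6% without Ighm and 57.7% with Ighmbp2. The top 1% of cells held 26.7% of Ig UMIs, 34.0% with thinned cells, 65.6% for V genes alone, and 12.6% to 33.4% with each library left out, the lowest without library 3. It was 13.8% without the plasma-like cell and 50.4% without Ighm.

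The leading kappa V gene's share with cells counted in place of UMIs was 74.9%, 86.0% and 87.4% in libraries 1, 2 and 3, and without the 10 richest cells it was 92.1% in library 3. For the leading heavy V gene, the share in library 2 was 93.9% without the 10 richest cells and 91.3% with cells counted, and in library 3 (Ighv1-71) 28.6% and 33.3%, so that Ighv1-71 rested on 1 cell. The other alternatives for these shares lay within counting error.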
